A study of Mus musculus with 16 samples.

Results

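The mast cell genes are 10 genes whose transcripts mark connective tissue mast cells: Mcpt4, Cma1, Tpsb2, Tpsab1, Cpa3, Hdc, Fcer1a, Ms4a2, Mrgprb1 and Mrgprb2. They were chosen by symbol and matched by Ensembl identifier, and make up 10 of the 55359 genes counted. All 10 passed the filter on low counts in every fit. RNA of whole dorsal skin was sequenced from 16 wild-type mice, C57Bl/6 in the labels and C57Bl/6N in the study's text, 8 weeks old, whose hair follicles were at rest (telogen). Males and females each formed a group irradiated with UVB and a group without UVB, with 4 mice in each of the 4 groups. The irradiated mice received 3 exposures on alternate days and were collected 6 h after the last, on day 5. Libraries held 16495776 to 33404831 reads assigned to genes, and levels are given as CPM, which are counts relative to the library total after scaling by TMM between libraries.

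Mast cells are long-lived granulated cells that mature in tissues under the growth factor Kitl acting on its receptor Kit. In skin they lie in the dermis, store histamine, heparin and proteases in their granules, and release them when IgE bound to its high-affinity receptor is crosslinked or when basic peptides act on Mrgprb2. Dermal mast cells are known as effectors in the response of skin to UVB. Because whole skin was sequenced, fewer mast cells and less of a transcript per mast cell cannot be told apart.

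The factor GATA2 is required in mast cells and binds short motifs built around the letters that name it. RefSeq promoter windows of 300 bases, from 250 before to 50 after the start of transcription, were at hand for 8 of the 10 genes, not for Tpsb2 and Tpsab1. Its 4 spellings were searched on both strands, and since they differ in their first or last letter no place matches more than 1 of them on a strand. All 8 windows held at least 1 of them, beside 29.8% of the 32851 windows of the same length. The spelling AGATAA, or TTATCT on the other strand, stood in 3 of the 8, Cpa3, Fcer1a and Ms4a2, beside 11.2% of all windows. The spelling AGATAG stood in Cma1 and Mrgprb1, beside 8.95% of all windows. TGATAA stood in Mcpt4 and Mrgprb2, beside 9.05%. TGATAG stood in Hdc, beside 7.29%. A match is a description of letters and does not show that a factor was bound. Shown 5′ to 3′ along the gene are the 250 bases before the start for Mcpt4, the member with the highest level, and for the 3 members that rose with UVB in both sexes, with each match in capitals. In the RefSeq build GRCm38.p6 all 4 lie on the minus strand, Mcpt4 at chr14:56062311-56062560, Cpa3 at chr3:20242182-20242431, Fcer1a at chr1:173227230-173227479 and Ms4a2 at chr19:11623720-11623969.
Mcpt4: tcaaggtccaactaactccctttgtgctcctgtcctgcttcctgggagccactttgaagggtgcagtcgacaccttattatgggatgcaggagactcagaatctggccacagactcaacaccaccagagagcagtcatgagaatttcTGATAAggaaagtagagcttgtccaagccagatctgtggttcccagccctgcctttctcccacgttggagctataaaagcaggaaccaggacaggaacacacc
Cpa3: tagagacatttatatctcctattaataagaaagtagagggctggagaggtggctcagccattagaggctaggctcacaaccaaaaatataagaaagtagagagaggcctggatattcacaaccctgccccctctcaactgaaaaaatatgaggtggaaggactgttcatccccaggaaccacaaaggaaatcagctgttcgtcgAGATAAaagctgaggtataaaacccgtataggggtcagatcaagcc
Fcer1a: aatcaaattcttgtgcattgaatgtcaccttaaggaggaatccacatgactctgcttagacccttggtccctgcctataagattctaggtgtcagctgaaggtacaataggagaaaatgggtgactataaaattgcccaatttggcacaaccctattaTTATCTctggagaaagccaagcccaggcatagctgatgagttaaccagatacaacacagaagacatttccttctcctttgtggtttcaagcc
Ms4a2: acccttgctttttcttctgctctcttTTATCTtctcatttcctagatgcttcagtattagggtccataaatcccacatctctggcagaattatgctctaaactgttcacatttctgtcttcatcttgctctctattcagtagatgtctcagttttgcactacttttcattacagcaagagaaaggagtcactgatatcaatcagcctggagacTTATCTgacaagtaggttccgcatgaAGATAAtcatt
The match in Mcpt4 began at base -103 counted from the start of transcription, that in Cpa3 at -46 and that in Fcer1a at -92. Ms4a2 held 3 matches, at -224, -37 and -11.

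After UVB 3 of the mast cell genes rose in males, a share near that of all genes, and 6 rose in females. A gene was called at a Benjamini-Hochberg adjusted p under 0.1 over all genes tested, by edgeR's quasi-likelihood test. In males 3 of the 10 rose (Cpa3, Fcer1a and Ms4a2) and 1 fell (Mrgprb2), where 29% of all 16535 genes tested were called higher and 30.5% lower. In females 6 rose (Mcpt4, Cma1, Cpa3, Fcer1a, Ms4a2 and Mrgprb1) and 0 fell (0 also at an unadjusted p under 0.05 and by DESeq2's Wald test), where 12.8% of the 16883 genes tested were called higher and 10.6% lower. Leaving out 1 mouse gave 3 to 5 higher in males, 5 without the irradiated male 1 or 4 or the male without UVB 2 or 4. In females it gave 2 to 8, 2 without the irradiated female 1 or the female without UVB 2, and 3 without the irradiated female 2 or the female without UVB 3 or 4. Over both sexes, each weighing the same, 5 rose (Mcpt4, Cma1, Cpa3, Fcer1a and Ms4a2) and 0 fell (0 also at an unadjusted p under 0.05 and by DESeq2), where 26.9% of 17406 genes were called higher and 31% lower. The pooled log2 fold changes of these 5 were 1.25 for Fcer1a, 0.51 for Ms4a2, 0.37 for Cpa3, 0.35 for Cma1 and 0.26 for Mcpt4 (edgeR adjusted p from 1.34e-04 to 0.0198), and the calls held without each of the 16 mice. Of those not called over both sexes, Hdc passed when any of 3 mice was left out, Tpsb2 without the female without UVB 1 (0.28, edgeR adjusted p = 0.0318), Mrgprb1 without the irradiated female 3 (0.17, edgeR adjusted p = 0.0877) and Mrgprb2 without the irradiated male 3 (-0.22, edgeR adjusted p = 0.0542). The median log2 fold change of the 10 was 0.16 in males, 0.47 in females and 0.33 over both, while that of all genes tested was -0.02, 0.00 and -0.03. The mice of both single-sex comparisons enter the pooled one, so it is not independent of them.

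Mcpt4, Cpa3, Ms4a2 and Mrgprb1 were lower in males than in females in both treatments, and Cma1, Tpsb2 and Mrgprb2 after UVB. Without UVB 4 of the 10 were lower in males (Mcpt4, Cpa3, Ms4a2 and Mrgprb1) and 0 higher, where 4.58% of 17406 genes were called lower and 7.21% higher. DESeq2 called 6 lower, with Cma1 and Tpsb2 besides, and 0 higher, and 0 were higher at an unadjusted p under 0.05. The log2 differences of Tpsab1 (0.58), Hdc (0.11) and Fcer1a (0.08) were above 0 without UVB and were not called. Leaving out 1 mouse gave 2 to 5 lower, 2 without the female without UVB 1 or the male without UVB 1, 2 or 3. After UVB 7 were lower in males (Mcpt4, Cma1, Tpsb2, Cpa3, Ms4a2, Mrgprb1 and Mrgprb2) and 0 higher (0 also at an unadjusted p under 0.05 and by DESeq2), where 12.5% were called lower and 12.8% higher. The median log2 difference of the 10, males against females, was -0.39 without UVB and -0.64 after it, beside 0.00 and -0.01 for all genes. The summed level of the 10 genes was 389, 297, 261 and 285 CPM in the 4 females without UVB, 412, 499, 338 and 379 CPM in the UVB-irradiated females, 229, 254, 199 and 254 CPM in the males without UVB and 242, 271, 279.8 and 253 CPM in the UVB-irradiated males. Every female stood above every male of the same treatment, and the treatments overlapped within each sex. Mcpt4, Cpa3, Cma1 and Tpsb2 made up 83.2% to 89.1% of this sum in each mouse, so it says little of the other members.

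**Figure D1:**
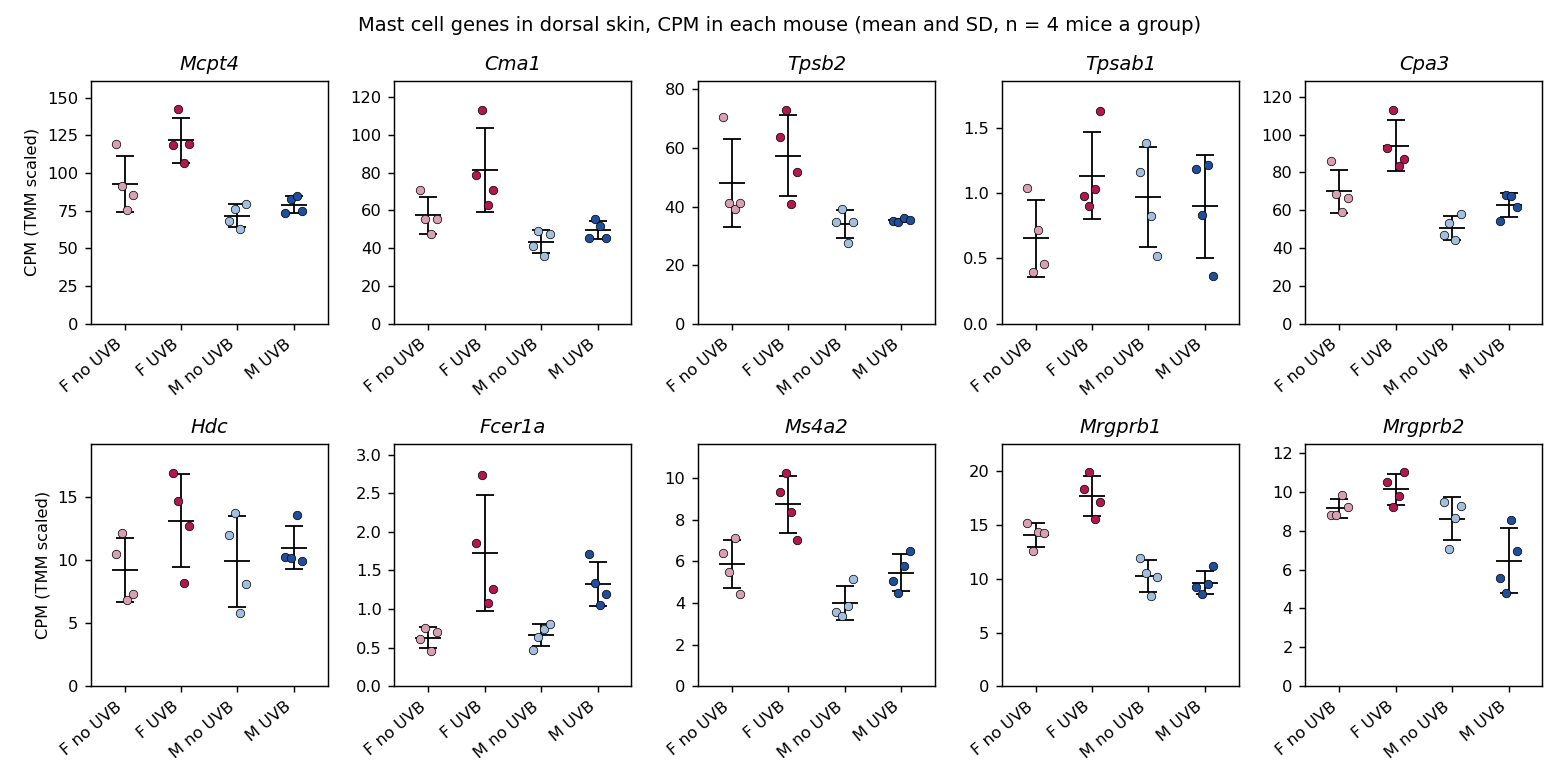
CPM (vertical axis, from 0) of the 10 mast cell genes in each of the 16 mice, grouped as females (F) and males (M) with and without UVB; points are mice, and bars give the mean and SD of 4 mice. Fcer1a was above every mouse without UVB in all 8 irradiated mice. Mrgprb1 was at 12.6 to 19.9 CPM in females and 8.40 to 11.9 CPM in males.

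For none of the 10 was the response to UVB shown to differ between the sexes. The difference between the male and the female log2 response was below 0 for all 10, with a median of -0.34, but by edgeR 0 were called, where 2.75% of genes were called higher and 4.25% lower. At an unadjusted p under 0.05 there were 2, Mrgprb1 and Mrgprb2, and DESeq2's Wald test called 1, Mrgprb2.

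**Figure D2:**
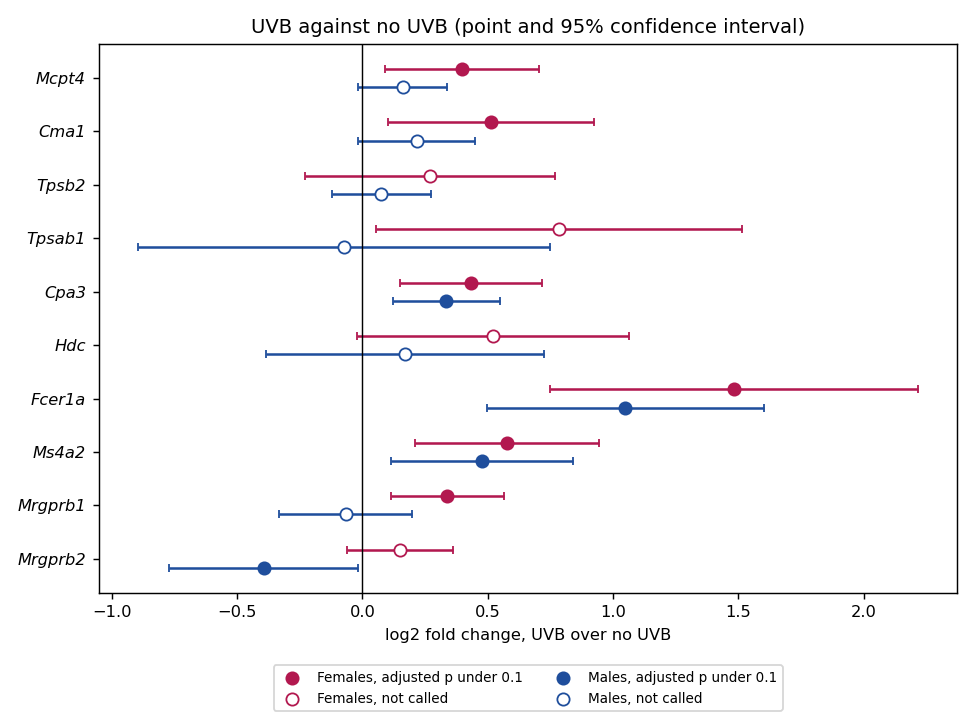
Log2 fold change of UVB over no UVB (horizontal axis) for each gene in females and males, with the 95% confidence interval of the edgeR fit over 4 against 4 mice; filled points passed an adjusted p of 0.1. Fcer1a lies farthest to the right in both sexes, and Mrgprb2 in males is the only filled point left of 0.

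Per kilobase of exon, the order of the levels over all 16 mice was Mcpt4 (82.4 ± 20.6 CPM per kb, SD, n = 16), Cma1 (53.2 ± 17.2), Cpa3 (43.4 ± 11.6), Tpsb2 (19.9 ± 6.25), Mrgprb2 (3.86 ± 0.765), Mrgprb1 (3.09 ± 0.857), Ms4a2 (2.14 ± 0.719), Hdc (1.57 ± 0.450), Fcer1a (1.09 ± 0.606) and Tpsab1 (0.426 ± 0.169). The 4 granule proteases at the top kept this order in all 16 mice, each above the next. Among the lower genes Mrgprb2 stood above Mrgprb1 in 15 of 16 mice, Mrgprb1 above Ms4a2 in all 16, Ms4a2 above Hdc in 14, Hdc above Fcer1a in 14 and Fcer1a above Tpsab1 in 15. The SD here spans 4 groups and so holds the differences between them. The order depends on the length used, all annotated exon bases of a gene, which was 2225 for Mrgprb2 and 4188 for Mrgprb1. In CPM the means over the 16 mice ran otherwise: Cpa3 (69.4) was above Cma1 (58.0). Mrgprb1 (12.9) and Hdc (10.8) were above Mrgprb2 (8.585).

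Mcpt4 and Cma1 encode the chymases of connective tissue mast cells. In GRCm39 Mcpt4 lies on chromosome 14 from 56297086 to 56299770 and Cma1 on the same chromosome from 56178908 to 56182132, both on the minus strand. Mcpt4 stood at 119, 91.4, 75.5 and 85.7 CPM in females without UVB, 119, 142, 107 and 119 CPM in irradiated females, 68.4, 75.8, 63.0 and 79.7 CPM in males without UVB and 73.7, 82.8, 84.6 and 74.5 CPM in irradiated males. The sexes were apart after UVB, while in each sex the treatments overlapped, in females through the first mouse without UVB. Mcpt4 rose by 0.40 (SE 0.138, edgeR adjusted p = 0.0790) on the log2 scale in females, and its log2 change of 0.16 (SE 0.0806, edgeR adjusted p = 0.1175) in males did not pass. In males against females it was lower by a log2 difference of -0.37 (SE 0.121, edgeR adjusted p = 0.0738) without UVB and -0.63 (SE 0.121, edgeR adjusted p = 0.00350) after it.

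Cma1 rose in females and was lower in males after UVB. It stood at 71.1, 55.6, 47.7 and 55.4 CPM in females without UVB, 78.9, 113, 63.1 and 70.7 CPM in irradiated females, 41.2, 49.0, 35.6 and 47.6 CPM in males without UVB and 45.5, 55.6, 51.95 and 45.5 CPM in irradiated males. After UVB every female exceeded every male, and without UVB the sexes overlapped. The log2 fold change with UVB was 0.51 (SE 0.184, edgeR adjusted p = 0.0884) in females and 0.22 (SE 0.106, edgeR adjusted p = 0.1075) in males, and the difference of -0.31 (95% interval -0.80 to 0.18) between the responses was not called. Its male to female log2 difference was -0.41 (edgeR adjusted p = 0.154) without UVB and -0.72 (SE 0.164, edgeR adjusted p = 0.00938) after it, and without the irradiated female 2 the former was called at -0.41 (edgeR adjusted p = 0.0568). The female calls of both chymases rest on most of the mice: the adjusted p was 0.129 to 0.169 for Mcpt4 and 0.103 to 0.177 for Cma1 without any 1 of the irradiated females 1, 2 and 4 or of the females without UVB 2, 3 and 4. The log2 fold change of Cma1 was then 0.31 without the irradiated female 2 and 0.43 to 0.58 without each of the others, and that of Mcpt4 0.31 to 0.41. Both also missed the threshold under upper quartile scaling (0.1176 and 0.117) and with no filter on low counts (0.1002 and 0.277). In males both passed without the irradiated male 1 or 4 or the male without UVB 2 or 4, with adjusted p from 0.0450 to 0.0907, and with all genes of at least 1 count kept or DESeq2 size factors (0.0703 to 0.09996), and Cma1 also by DESeq2's Wald test (0.0944). The lower Mcpt4 of males without UVB was not called without the female without UVB 1, at a log2 difference of -0.23 (edgeR adjusted p = 0.216). Nor was it without the female without UVB 2 or the male without UVB 1, 2 or 3, at -0.40 to -0.31 (edgeR adjusted p 0.1045 to 0.161).

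Of the 50-base words in the annotated Mcpt4 transcripts 8.03% also occur in transcripts of Cma2, Mcpt9 or Gm62820, and of those of Cma1 4.25% occur in those of Gm48934. The tables list 0 reads mapped to several places, and reads from these words may be missing from the counts. Mcpt9 itself had 0 or 1 counts in every mouse and Cma2 had 1 to 11.

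Cpa3 encodes the granule carboxypeptidase A3 and lies on chromosome 3 from 20269774 to 20296362, minus strand. It stood at 86.0, 68.4, 59.3 and 66.6 CPM in females without UVB, 93.05, 113, 83.2 and 86.8 CPM in irradiated females, 46.7, 53.5, 44.2 and 58.2 CPM in males without UVB and 54.5, 68.0, 67.6 and 61.6 CPM in irradiated males. Males were below females without overlap in both treatments, and the treatments overlapped by 1 mouse on each side in females and in males. Cpa3 rose by 0.43 (SE 0.128, edgeR adjusted p = 0.0459) in females and by 0.33 (SE 0.0977, edgeR adjusted p = 0.0139) in males on the log2 scale, from a mean of 70.1 ± 11.3 to 94.1 ± 13.4 CPM and from a mean of 50.6 ± 6.37 to 62.9 ± 6.35 CPM (SD, n = 4 each). Males against females differed by -0.47 (edgeR adjusted p = 0.0282) without UVB and -0.58 (edgeR adjusted p = 0.00553) after UVB. The rise in females was at an adjusted p of 0.101 to 0.108 without the female without UVB 2, 3 or 4, and the rise in males held without each of the 8 males (edgeR adjusted p at most 0.0463).

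Tpsb2 and Tpsab1 encode mast cell tryptases and lie near each other on chromosome 17, Tpsb2 from 25585170 to 25588079 on the plus strand and Tpsab1 from 25562212 to 25564541 on the minus strand. They are shown because they differed far in level. C57BL/6 mice are known to carry a change at a splice donor of Tpsab1 that prevents its mature product. In the GRCm39 genome, which is of a C57BL/6 mouse, the last 12 bases of exon 3 of Tpsb2 (25585734 to 25585899) and of exon 2 of Tpsab1 (25564024 to 25564189), each with the first 12 bases of the intron, read as follows, with the first pair of intron bases in capitals.
Tpsb2: ctgtgtgggaccGTgagtctccct
Tpsab1: ctgtgtgggaccATgagtctacct
Counted from the first intron base, with Tpsb2 first, these stretches differ by G1A and C9A. They span chr17:25585888-25585911 and chr17:25564012-25564035. The files hold counts per gene, so splicing at this site was not analysed here, and its part in the low Tpsab1 count was not tested.

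Tpsb2 stood at 70.4, 41.1, 39.03 and 41.1 CPM in females without UVB, 63.7, 73.05, 41.0 and 51.8 CPM in irradiated females, 34.6, 38.99, 27.6 and 34.9 CPM in males without UVB and 35.2, 34.7, 36.0 and 35.2 CPM in irradiated males. Males lay below females in both treatments, though by a narrow gap without UVB (38.99 against 39.03 CPM), while the treatments overlapped. Tpsb2 did not pass the test for UVB in females (log2 fold change 0.27, 95% interval -0.23 to 0.77, edgeR adjusted p = 0.454) or males (0.08, 95% interval -0.12 to 0.27, edgeR adjusted p = 0.509). In females the value rests on the first mouse without UVB: without it the fold change was 0.51 (edgeR adjusted p = 0.0799). The male to female difference was -0.49 (edgeR adjusted p = 0.133) without UVB and -0.70 (SE 0.190, edgeR adjusted p = 0.0210) after it, and the first of these was called without the irradiated female 3 or the female without UVB 3 (edgeR adjusted p 0.0851 and 0.0944).

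Tpsab1 gave 7 to 38 counts per mouse, against 544 to 2026 of Tpsb2. It stood at 1.04, 0.396, 0.720 and 0.455 CPM in females without UVB, 0.978, 0.901, 1.03 and 1.63 CPM in irradiated females, 1.17, 1.38, 0.823 and 0.516 CPM in males without UVB and 1.18, 0.830, 1.21 and 0.365 CPM in irradiated males. All groups overlapped. Its log2 fold change was 0.78 (95% interval 0.05 to 1.51, edgeR adjusted p = 0.137) in females and -0.07 (95% interval -0.90 to 0.75, edgeR adjusted p = 0.884) in males. Without the first female without UVB the female value was 1.08 (edgeR adjusted p = 0.0538).

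Hdc encodes histidine decarboxylase, which makes histamine, and lies on chromosome 2 from 126435558 to 126461318, minus strand. It stood at 10.4, 12.1, 6.84 and 7.28 CPM in females without UVB, 16.9, 14.7, 8.19 and 12.7 CPM in irradiated females, 11.9, 13.7, 5.76 and 8.09 CPM in males without UVB and 10.25, 10.15, 13.5 and 9.91 CPM in irradiated males. All 4 groups overlapped, and the spread within the control groups was wide. Neither the female (log2 fold change 0.52, 95% interval -0.02 to 1.06, edgeR adjusted p = 0.182) nor the male value (0.17, 95% interval -0.38 to 0.72, edgeR adjusted p = 0.592) passed, and neither did the sex differences of 0.11 without and -0.26 after UVB (edgeR adjusted p = 0.8755 and 0.536). Without the irradiated female 3 the female fold change was 0.69 (edgeR adjusted p = 0.0666), and over both sexes Hdc passed without that mouse, the female without UVB 2 or the male without UVB 2 (edgeR adjusted p 0.0528 to 0.0721, against 0.158 with all 16 mice). Hdc was one of 3 members, with Fcer1a and Tpsab1, called for neither sex comparison.

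Fcer1a and Ms4a2 encode the alpha chain, which binds IgE, and the beta chain of the high-affinity IgE receptor. Fcer1a lies on chromosome 1 from 173048851 to 173054781 and Ms4a2 on chromosome 19 from 11592887 to 11601083, both on the minus strand. Fcer1a stood at 0.606, 0.753, 0.458 and 0.707 CPM in females without UVB, 1.85, 2.74, 1.07 and 1.255 CPM in irradiated females, 0.466, 0.644, 0.736 and 0.803 CPM in males without UVB and 1.71, 1.34, 1.06 and 1.20 CPM in irradiated males. All 8 irradiated mice exceeded all 8 others, where 5.89% of all genes tested were higher without overlap, 11.1% within females and 22.9% within males. Fcer1a rose by 1.48 (SE 0.331, edgeR adjusted p = 0.0142) in females and by 1.05 (SE 0.252, edgeR adjusted p = 0.00474) in males on the log2 scale. Its mean went from 0.631 ± 0.131 to 1.73 ± 0.751 CPM in females, 2.74 times as high, and from 0.662 ± 0.146 to 1.33 ± 0.282 CPM in males, 2.003 times as high (SD, n = 4 each). It was the only member past a log2 fold change of 1, where 1.63% of genes tested in females and 4.08% in males were called higher with such a change. At the adjusted p alone these calls held without each mouse and under each alternative run, but in males the fold change was under 1 without the irradiated male 1 (0.88) or the male without UVB 1 (0.91) and under upper quartile scaling (0.97). The level was low, at 10 to 19 counts per mouse without UVB and 20 to 76 after it. The sexes did not differ in Fcer1a beyond the spread (log2 difference 0.08 without UVB and -0.37 in irradiated mice, edgeR adjusted p = 0.935 and 0.374).

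Ms4a2 stood at 6.41, 5.47, 7.14 and 4.45 CPM in females without UVB, 9.315, 10.2, 8.36 and 7.02 CPM in irradiated females, 3.59, 3.36, 3.855 and 5.16 CPM in males without UVB and 5.045, 4.47, 5.755 and 6.52 CPM in irradiated males. The treatments overlapped slightly in each sex, and after UVB every female exceeded every male. Ms4a2 rose by 0.58 (SE 0.166, edgeR adjusted p = 0.04155) in females and by 0.48 (SE 0.165, edgeR adjusted p = 0.03015) in males. It was lower in males by a log2 difference of -0.57 (SE 0.176, edgeR adjusted p = 0.0594) without UVB and -0.68 (SE 0.169, edgeR adjusted p = 0.0127) after it. The female rise was at an adjusted p of 0.104 without the irradiated female 1, and the difference without UVB was at 0.101 to 0.171 without the female without UVB 1 or 3 or the male without UVB 1, 2 or 3. Of the genes given beside the members, Fcer1g, Il3ra, Mcpt8, Prss34, Mcpt1, Mcpt2, Mcpt9, Kitl, Lum, Pdgfra, Emcn and Slc18a2 were chosen after their values were seen. Fcer1g, the gamma chain that the IgE receptor shares with other Fc receptors, had a log2 fold change of -0.01 in females and -0.02 in males (edgeR adjusted p = 0.973 and 0.868), at 38.8 to 58.25 CPM in the 16 mice.

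The IgE receptor alpha chain is also carried by basophils, so the basophil list was read beside it. Mcpt8, the defining protease of mouse basophils, was at 0 counts in 7 of the 8 mice without UVB and at 1 count in the other, and at 2 to 18 counts in the irradiated females and 4 to 26 in the irradiated males. In CPM this was 0.257, 0.649, 0.300 and 0.0930 in irradiated females and 0.654, 0.255, 0.370 and 1.36 in irradiated males. Mcpt8 fell below the filter on low counts and was not tested, and Prss34, also a basophil protease, had 0 to 4 counts without UVB and 2 to 7 after it. Cd200r3, a receptor of basophils and mast cells, rose by 0.84 (SE 0.190, edgeR adjusted p = 0.0147) in females and 0.98 (SE 0.205, edgeR adjusted p = 0.00199) in males, and Il3ra did not pass in either (edgeR adjusted p = 0.668 and 0.643). Of the 4 genes of the list 2 were tested, and its summed level was 13.9 to 21.2 CPM in females without UVB, 15.9 to 25.1 in irradiated females, 12.4 to 18.1 in males without UVB and 14.6 to 17.5 in irradiated males. The part of basophils in the rise of Fcer1a, or of Ms4a2, Cpa3 and the other members, was not tested.

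Mrgprb1 and Mrgprb2 encode receptors of the Mas-related family; Mrgprb2 is the mast cell receptor for basic secretagogues. Mrgprb1 lies on chromosome 7 from 48093861 to 48106093 and Mrgprb2 on the same chromosome from 48200713 to 48207885, both on the minus strand. Mrgprb1 stood at 15.2, 12.6, 14.4 and 14.25 CPM in females without UVB, 18.4, 19.9, 15.5 and 17.1 CPM in irradiated females, 11.9, 10.5, 8.40 and 10.2 CPM in males without UVB and 9.28, 8.61, 9.56 and 11.2 CPM in irradiated males. All 4 irradiated females exceeded the females without UVB, where 11.1% of genes did so. Every female exceeded every male of the same treatment, where 5.17% of genes did so without UVB and 9.76% after it. Mrgprb1 rose by 0.34 (SE 0.102, edgeR adjusted p = 0.0477) in females, while the male value was -0.07 (95% interval -0.33 to 0.20, edgeR adjusted p = 0.667). It was lower in males by -0.46 (SE 0.113, edgeR adjusted p = 0.0196) without UVB and by -0.88 (SE 0.113, edgeR adjusted p = 1.88e-04) after UVB, and these calls held without each of the 16 mice. The female rise was at an adjusted p of 0.106 to 0.119 without the irradiated female 1 or 2 or the female without UVB 2.

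Mrgprb2 was the member that fell in males. It stood at 8.79, 8.80, 9.82 and 9.20 CPM in females without UVB, 10.5, 9.19, 9.77 and 11.0 CPM in irradiated females, 9.46, 7.04, 8.66 and 9.29 CPM in males without UVB and 5.54, 4.79, 8.55 and 6.93 CPM in irradiated males. Irradiated males were below all irradiated females, but overlapped the males without UVB. Mrgprb2 fell by 0.39 (SE 0.172, edgeR adjusted p = 0.0735) on the log2 scale in males, and was at 0.15 (95% interval -0.06 to 0.36, edgeR adjusted p = 0.3235) in females. The male call was lost without the irradiated male 1 or 2 or the male without UVB 1, 3 or 4 (edgeR adjusted p 0.130 to 0.191). The difference between the responses was -0.56 (95% interval -0.98 to -0.13, edgeR adjusted p = 0.132), called without the irradiated male 3 (-0.72, edgeR adjusted p = 0.0506). Against females, males were at -0.09 (edgeR adjusted p = 0.778) without UVB and -0.65 (SE 0.144, edgeR adjusted p = 0.00736) after it. For Mrgprb1 the difference between the responses was -0.42 (95% interval -0.76 to -0.08, edgeR adjusted p = 0.147), called without the male without UVB 3 (-0.51, edgeR adjusted p = 0.0659).

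After UVB the 7 genes called lower in males were also those whose 4 males all lay below the 4 females, where 9.76% of genes did so. These 7 calls held without each of the 16 mice. Without UVB such a gap was seen for Tpsb2, Cpa3 and Mrgprb1, where 5.17% of genes had one.

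**Figure D3:**
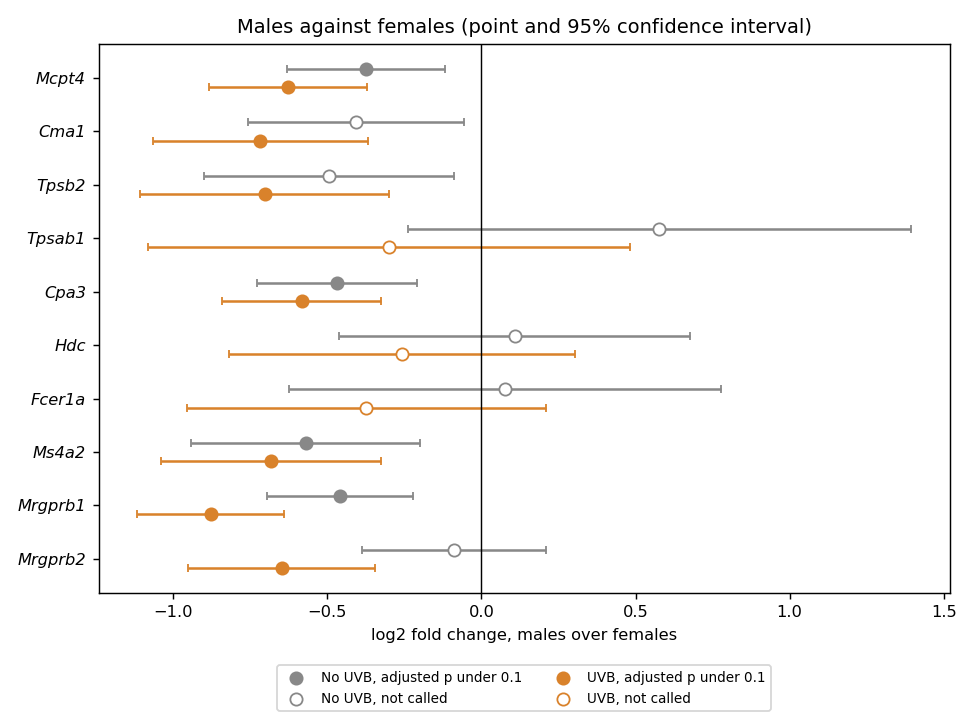
Log2 fold change of males over females (horizontal axis) for each gene without UVB and after UVB, with the 95% confidence interval of the edgeR fit over 16 mice; filled points passed an adjusted p of 0.1. After UVB 7 filled points lie left of 0, between -0.88 and -0.58.

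Ratios between genes within a mouse do not depend on how libraries are scaled. Chosen after the values were seen, 5 ratios were compared between treatments in each sex and between sexes in each treatment, 20 exact two-sided permutation tests of the mean log2 ratio, 4 against 4 mice, in which the smallest possible p is 0.0286. After adjustment over the 20, 0 had a p under 0.1, and 2 did at an unadjusted p under 0.05. The ratio of Cma1 to Mcpt4 CPM was 0.621 ± 0.0221, 0.661 ± 0.0949, 0.603 ± 0.0333 and 0.629 ± 0.0290 (SD, n = 4) in females without UVB, irradiated females, males without UVB and irradiated males. The ratio of Fcer1a to Ms4a2 was 0.114 ± 0.0426 and 0.193 ± 0.0577 in females without and with UVB and 0.167 ± 0.0300 and 0.252 ± 0.0802 in males, 1.74 and 1.47 times as high in the mean of the logs after UVB, with overlap between the mice (exact permutation p = 0.0857 and 0.171, adjusted 0.343 and 0.381). The ratio of Mrgprb2 to Mrgprb1 after UVB was 0.880 times its level without UVB in females and 0.781 times in males (exact permutation p = 0.171 and 0.143, adjusted 0.381 for both). That of Tpsb2 to Cpa3 was 0.898 times in females and 0.840 times in males (exact permutation p = 0.400 and 0.0857, adjusted 0.615 and 0.343).

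Ptprc, the gene of CD45 and a marker of all leukocytes, fell with UVB and was lower in males. It was at 148 to 175 CPM in females without UVB, 109.6 to 129 in irradiated females, 98.6 to 123 in males without UVB and 75.5 to 96.4 in irradiated males. It fell by 0.46 (SE 0.0816, edgeR adjusted p = 0.00502) in females and by 0.37 (SE 0.0901, edgeR adjusted p = 0.00496) in males, and was lower in males by -0.54 without UVB and -0.47 in irradiated mice (edgeR adjusted p = 0.00121 and 0.00314). The ratio of Cpa3 to Ptprc was 0.440 ± 0.0462 in females without UVB and 0.814 ± 0.0590 in irradiated females, 0.468 ± 0.0905 in males without UVB and 0.768 ± 0.148 in irradiated males. All irradiated mice exceeded the mice without UVB of their sex, by 1.86-fold in females and 1.64-fold in males (exact permutation p = 0.0286 each, adjusted 0.286). Between males and females the ratio was 1.06 without UVB and 0.932 after it, with overlap (exact permutation p = 0.714 and 0.514, adjusted 0.752 and 0.643).

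**Figure D4:**
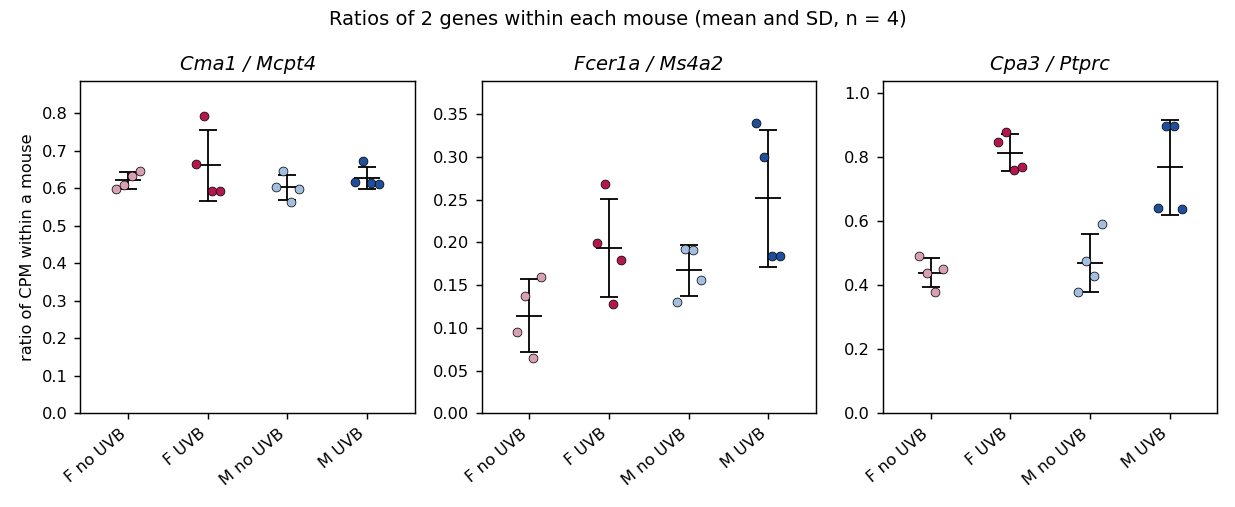
Ratio of the CPM of a pair of genes within each mouse (vertical axis, from 0) in the 4 groups; points are mice, and bars give the mean and SD of 4 mice. Cma1 over Mcpt4 is 0.565 to 0.794 over the 16 mice, while Cpa3 over Ptprc is 0.379 to 0.5905 without UVB and 0.639 to 0.897 after it.

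Other genes of mast cells were read from lists, and the shares of all genes called in each comparison, given above, apply to them too. Of 18 other mast cell identity genes 16 were tested, of which 1 rose and 7 fell in males and 2 rose and 4 fell in females, with median log2 fold changes of -0.11 and 0.05. Rab27b, which tethers secretory granules and is used by other secretory cells too, rose in both (1.16 in males, 0.72 in females, edgeR adjusted p = 4.23e-05 and 0.00628). Ltc4s, which makes leukotriene C4, fell in males (-0.94, edgeR adjusted p = 2.39e-04; females -0.70, edgeR adjusted p = 0.106), and Maob, an amine oxidase of many cell types, fell in both (-0.64 and -0.42, edgeR adjusted p = 3.20e-04 and 0.0112). The transcription factor Gata2 rose in females (0.44, edgeR adjusted p = 0.0469; males 0.15, edgeR adjusted p = 0.225). The receptors Kit (-0.24, edgeR adjusted p = 0.0446) and Il1rl1, which binds Il33 (-0.47, edgeR adjusted p = 0.02425), fell in males, with values of 0.10 and 0.13 in females (edgeR adjusted p = 0.477 and 0.622). Kit is also expressed by melanocytes and Il1rl1 by some lymphocytes.

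Against females, 7 of the 16 were lower in males without UVB and 8 after it, with 0 and 1 higher. Kit was lower by -0.27 and -0.62 (edgeR adjusted p = 0.0662 and 3.71e-04), Gata2 by -0.64 after UVB (edgeR adjusted p = 0.00259; -0.34 without, edgeR adjusted p = 0.101) and Il1rl1 by -0.87 after UVB (edgeR adjusted p = 0.00369; -0.26 without, edgeR adjusted p = 0.399). The difference between the male and female responses was not called for these 3 (edgeR adjusted p = 0.124, 0.318 and 0.154).

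The mucosal mast cell proteases were near the limit of detection. Mcpt1 had 0 or 1 counts per mouse, Mcpt2 0 to 3 and Mcpt9 0 or 1. Of the 7 other mast cell proteases 3 were tested, and in males 1 rose and 1 fell, with 0 called in females by edgeR and 0 at an unadjusted p under 0.05. Gzmb, a granzyme also of cytotoxic lymphocytes, rose in males (0.75, edgeR adjusted p = 0.0149; females 0.41, edgeR adjusted p = 0.4795). Tpsg1, the membrane-anchored tryptase, fell by 0.54 in males (edgeR adjusted p = 0.00995) and was at 0.35 in females (edgeR adjusted p = 0.224), a difference of -0.90 between the responses that passed (edgeR adjusted p = 0.0472).

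Of 15 genes of signalling from the IgE receptor, most of which other leukocytes also use, 1 rose and 4 fell in males and 0 rose and 6 fell in females, with medians of -0.08 and -0.24. Fyn (-0.58 and -0.24, edgeR adjusted p = 6.27e-05 and 0.0735), Syk (-0.55 and -0.48, edgeR adjusted p = 1.98e-04 and 0.0197) and Grap2 (-0.56 and -0.58, edgeR adjusted p = 0.00357 and 0.0395) fell in males and females. Of 7 genes of histamine breakdown and histamine receptors 4 were tested, and 3 fell in males, Hrh1, the receptor of the vascular response (-0.93, edgeR adjusted p = 8.93e-04), Hnmt, which methylates histamine (-0.79, edgeR adjusted p = 7.28e-04), and the transporter Slc22a3 (-0.48, edgeR adjusted p = 0.0178). In females 0 of the 4 were called by edgeR, and 0 had an unadjusted p under 0.05. Of 10 growth factors and activators of mast cells 6 were tested in males, where 4 rose and 0 fell. Kitl, the growth factor that sustains mast cells, rose in both (0.30 and 0.24, edgeR adjusted p = 0.00334 and 0.0596), and Il33 (0.66, edgeR adjusted p = 0.00109) and Tslp (0.71, edgeR adjusted p = 0.03125) rose in males, with 0.07 and 0.41 in females (edgeR adjusted p = 0.83 and 0.302).

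**Figure D5:**
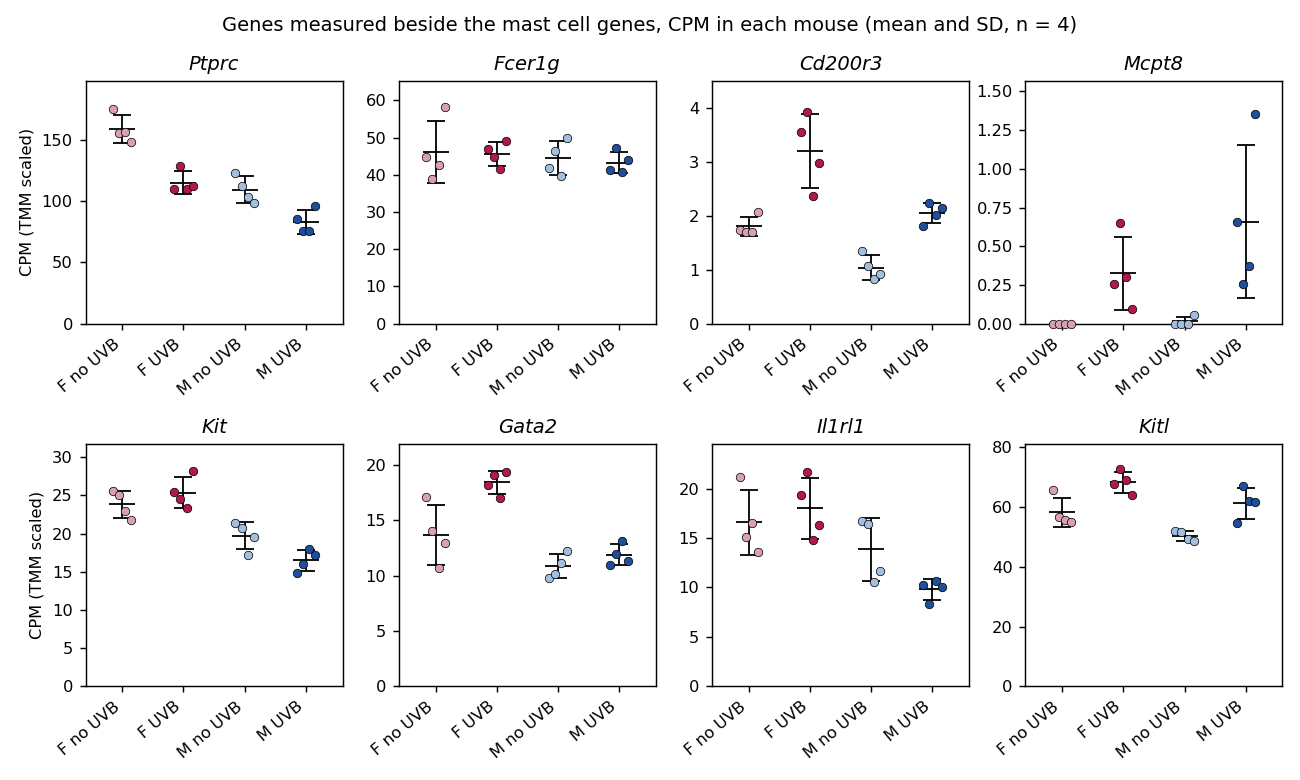
CPM (vertical axis, from 0) of 8 genes read beside the mast cell genes in each of the 16 mice; points are mice, and bars give the mean and SD of 4 mice. Ptprc is lower after UVB in both sexes, Cd200r3 and Mcpt8 are higher, and Kit is at 14.9 to 17.95 CPM in irradiated males against 23.3 to 28.2 CPM in irradiated females.

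Markers of other cell types differed between the groups too. The summed level of 8 fibroblast and matrix genes was 19872 to 21097 CPM in females without UVB, 12751 to 22622 in irradiated females, 79733 to 86977 in males without UVB and 28817 to 39768 in irradiated males, and 7 of the 8 fell in males, while 1 rose (Lum) and 1 fell (Pdgfra) in females. All males without UVB stood above all other mice in this sum. The labels give no batch, so sex and processing cannot be told apart for that group, and the part of this in the male response and in the sex difference without UVB was not tested. That of 6 keratinocyte genes was 8105 to 12289, 12440 to 15999, 9396 to 14281 and 21647 to 30820 CPM in the same order, and 4 rose and 1 fell (Krt15) in males and 3 rose and 1 fell (Krt15) in females. That of 11 neutrophil genes was 10.9 to 16.8, 21.0 to 31.3, 11.1 to 18.8 and 55.2 to 162 CPM, where 5 of 7 tested rose in males and 2 of 5 in females. Of 7 T cell genes 7 fell in males and 3 in females (Trac, of the T cell receptor, fell by 1.13 in males), of 8 resident macrophage genes 5 and 1, of 6 adipocyte genes 3 and 0 and of 6 skeletal muscle genes 6 and 0, with none higher, while of 6 endothelial genes 0 were called in either by edgeR (1, Emcn in females, at an unadjusted p under 0.05), and of 6 melanocyte genes 3 rose and 1 fell in males. In males against females after UVB, 6 of 6 adipocyte genes (median log2 difference -0.78) and 5 of 7 T cell genes (-0.997) were called lower, while 5 of 6 keratinocyte genes (0.76) and 4 of 7 neutrophil genes tested (1.34) were called higher. Without UVB 3 of the 7 T cell genes (-0.64) were called lower, 4 of 6 skeletal muscle genes (0.56) and 4 of 8 fibroblast and matrix genes (0.51) higher, and the 6 adipocyte genes stood at -0.41 to -0.02. In the difference between the male and female responses 5 of 6 skeletal muscle genes (-0.80) and 3 of 8 fibroblast and matrix genes (-0.58) were called lower. The part of these shifts in the levels of the mast cell genes, which are shares of a library, was not tested. The 7 lower levels in males after UVB were called under TMM, DESeq2 size factors and upper quartile scaling alike.

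Within groups Mcpt4, Cma1, Cpa3 and Tpsb2 varied together from mouse to mouse. Deviations of log2 CPM from the group mean over the 16 mice correlated at r = 0.95 for Mcpt4 and Cpa3, 0.93 for Cma1 and Cpa3 and 0.91 for Mcpt4 and Cma1. Those of Tpsb2 were 0.86 with Mcpt4, 0.85 with Cma1 and 0.80 with Cpa3, while those of Tpsab1 with these 4 genes ran from -0.03 to 0.26. Of all pairs, 11 of the 45 pairs of members were over 0.5, while 12 were below 0 (median 0.28). Mrgprb2 and Fcer1a were the pair farthest apart, at -0.40. The mouse with the highest mean standardised deviation was the irradiated female 2 (1.23) and the lowest was the irradiated female 3 (-1.15). The 10 other genes most like the mean of the 9 members with at least 1 CPM were Rpl30 (r = 0.93), Gimap6 (0.92), Cyp4v3 (0.91), Hsd17b11 (0.90), Cnpy2 (0.89), Micos13, Rtl8c and Cd48 (0.88 each), Rpl5 and Rps6-ps4 (0.87 each), out of 15133 compared. Of the listed mast cell genes outside the 10 the closest was Slc18a2, the vesicular monoamine transporter that loads histamine into granules, at r = 0.81 and rank 71. With 16 points that share libraries, and 15133 genes to choose from, these are descriptions.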

How the data were processed

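Poly(A) RNA of whole dorsal skin from 16 mice was sequenced with a strand-directional kit. Before deposit the authors mapped reads with STAR to GRCm39 and counted reads per gene, giving raw counts per Ensembl gene for both strand settings. The aligner version and annotation release were not given in the sources used here. The column for the opposite strand setting was not used in the main fit, as it held 3.63% to 4.23% of the reads on genes. Reads mapped to several places are listed as 0. Names and GRCm39 coordinates came from GENCODE M39, which matched 54749 of 55359 identifiers.

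Counts were filtered with filterByExpr, scaled by TMM and fitted with the robust quasi-likelihood test of edgeR 4.0.16 (limma 3.58.1, R 4.3.3), with Benjamini-Hochberg adjustment over all genes tested and a threshold of 0.1. Males and females were fitted over their 8 mice each, and the pooled response, the difference between responses and the sexes over 16 mice. SE and 95% intervals come from these fits. DESeq2 1.42.0 and the other alternatives are given with the closing results. Ratios were compared by exact permutation tests in scipy 1.17.1. Members and gene lists were chosen with earlier results of these data known. Named were the 10 members, at most 3 called genes per list by size of change, Kit, Gata2, Il1rl1 and the 10 genes most alike, besides genes that share sequence with a member and genes that the report says were chosen after their values were seen. A gene of the list of growth factors and activators is not reported here.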

Additional observations from a re-analysis of the deposited data

Results flagged for a closer look

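In each group of 4 mice the highest and lowest CPM of every member were set against the other 3, and 2 of the 40 groups held a value far from the rest, where chance marks about 1 in 20. Tpsb2 stood at 70.4 CPM in the female without UVB 1, while the other females without UVB were at 39.03 to 41.1 CPM. The same mouse was the highest of its group for Mcpt4, Cma1, Cpa3, Tpsab1 and Mrgprb1. Hdc stood at 13.5 CPM in the irradiated male 3, while the other irradiated males were at 9.91 to 10.25 CPM. The cause of either was not tested.

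For Mrgprb2 the irradiated mice of the sexes lay on opposite sides of their controls: every irradiated male was below the mean of the males without UVB and every irradiated female above that of the females without UVB. The male response minus the female one was -0.56 on the log2 scale, and the test of that difference did not pass (edgeR adjusted p = 0.132).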

How the results depend on the processing

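The number of members called higher in males was 3, and was 4 by DESeq2's Wald test, with Cma1 besides, and 5 with DESeq2 size factors and with every gene of at least 1 count kept. Requiring also a log2 fold change past 1 left 1 higher and 0 lower in males, 1 higher in females, 1 higher over both sexes, and 0 lower in males against females without and after UVB. The number lower in the difference between responses was 0, and was 1 (Mrgprb2) under DESeq2's Wald test. Leaving out 1 mouse at a time gave 3 to 5 higher and 0 to 1 lower in males, 2 to 8 higher in females, 5 to 7 higher and 0 to 1 lower over both sexes, 0 to 1 lower in the difference between responses, and 2 to 5 lower in males without UVB. It gave 7 lower in males after UVB each time.

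Deviations from the group means of same-numbered mice correlated at -0.12 to 0.22, and not every mouse was closest to its own number. The irradiated males 2, 3 and 4 were closest to the irradiated female of their number. No irradiated male was closest to the male without UVB of its number. With 4 mice in a group this cannot decide whether the replicate numbers pair the mice. With the replicate number as a block, the difference between responses had 1 member lower, Mrgprb2 (-0.57, edgeR adjusted p = 0.0853). Hdc then passed in females (0.51, adjusted p = 0.0428) and over both sexes (0.37, adjusted p = 0.0579), Cma1 in males (0.22, adjusted p = 0.0862), and Cma1 and Tpsb2 in males against females without UVB (-0.41 and -0.48, adjusted p = 0.0884 and 0.0862). The block changed no other call.

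Of 1233 values of single members under alternatives, 1146 kept direction and side of the threshold, 38 lost their call, 36 gained one and 13 changed sign, and 0 of the sign changes was in a called value. Upper quartile scaling gave a Tpsb2 value of -0.001256 in males. Leaving out 1 mouse gave ranges of -0.27 to 0.18 for Tpsab1, -0.007544 to 0.38 for Hdc and -0.14 to 0.0142 for Mrgprb1 in males, of -0.21 to 0.0254 for Ms4a2 in the difference between responses, and of -0.0766 to 0.21 for Fcer1a and -0.0937 to 0.30 for Hdc in males against females without UVB. The causes were not tested.

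Among all genes, upper quartile scaling gave 1737 higher and 2157 lower in females (44.6% of calls higher, against 54.7%) and 1659 higher and 2736 lower in males against females after UVB (37.7% against 50.6%). It put the median of all genes at -0.10 in males, against -0.02. For the difference between responses, DESeq2 size factors gave 687 higher and 641 lower (51.7% higher, against 39.2%), DESeq2's Wald test called 2040 genes and the fit of every gene with at least 1 count 724, against 1218. Without 1 of the irradiated female 1, the irradiated males 1 and 2, the female without UVB 3 and the males without UVB 1 and 2 edgeR called 461 to 706. Between the sexes 1192 genes were called without UVB without the male without UVB 2, against 2052, and 2791 after UVB without the irradiated female 1, against 4391. Depth limits Tpsab1 and Fcer1a most, at 7 to 38 and 10 to 76 counts per mouse.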
